A study of Mus musculus with 20 samples.

Results

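Activated T follicular helper (Tfh) cells in which Foxp3 RNA was found were compared with activated Tfh cells in which it was not. A cell counted as detected when its deposited Foxp3 value was above 0, within the cluster that the authors named activated Tfh. By this rule 859 of 11953 activated cells were detected and 11094 were undetected, out of 28192 cells in all. The cells were chosen by their measured Foxp3 value, so Foxp3 itself was not tested. The 859 cells held 1 corrected Foxp3 count in 547 cells, 2 in 161, 3 in 67, 4 in 53 and 5 or more in 31. The cells just inside the rule therefore had a corrected count of 1 and those just outside had 0. A corrected count is the number of RNA molecules (UMIs) of a gene in a cell after the authors' normalization.

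The cells came from spleens of bone marrow chimeras on the C57BL/6 background, which were irradiated at 8 to 10 weeks of age and analyzed 10 weeks later. WT chimeras (n = 5, mice 11, 12, 14, 23 and 36) received congenic WT marrow and were immunized with NP-OVA in alum at week 6, and a booster of NP-OVA followed 4 weeks later by the published methods. 564Igi chimeras (n = 5, mice 13, 17, 21, 24 and 34) received WT marrow mixed with marrow from 564Igi mice, whose knocked-in heavy and light chains encode an autoreactive B cell receptor, with no immunization described. Donor marrow and immunization thus cannot be told apart. T cells positive for CD4, CXCR5, PD-1 and CD45.2 and negative for CD45.1 were sorted, and each mouse gave 1 gene expression and 1 T cell receptor (TCR) library. Retained cells carried 3424280 to 15241983 UMIs per mouse, and activated cells had a median of 2754 to 4504 UMIs per mouse. The T cell marker Cd3e was found in 99.5% of detected and 99.5% of undetected cells. Barcodes shared by libraries numbered 491, and 988 cells carried one.

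Tfh cells help B cells in germinal centers through contact ligands and cytokines, and need the transcription factor Bcl6. T follicular regulatory (Tfr) cells sit in the same follicles, restrain that help and share CXCR5 and PD-1 with Tfh cells. Foxp3 is the transcription factor that defines regulatory T cells, so its RNA separates the subsets only where enough molecules are captured per cell.

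Detected cells were present in every mouse. Their share of activated cells in the 564Igi chimeras was 5.69% in mouse 13, 8.10% in mouse 17, 4.25% in mouse 21, 4.50% in mouse 24 and 4.22% in mouse 34. In the WT chimeras it was 11.1% in mouse 11, 6.15% in mouse 12, 12.9% in mouse 14, 7.61% in mouse 23 and 7.47% in mouse 36. The groups overlapped, since mouse 17 was above mice 12, 23 and 36. The mean was 5.35% ± 1.65 (SD, n = 5) in 564Igi and 9.05% ± 2.83 (SD, n = 5) in WT chimeras, a difference of -3.70 percentage points (two-sided exact permutation test over all assignments of the mice, p = 0.0476). Thinning each cell to 2500 corrected counts gave 4.12% in 564Igi and 7.10% in WT chimeras (exact permutation p = 0.0317). The authors normalized WT and 564Igi cells separately, so corrected counts of the 2 conditions came from different fits. Thinning acts on the same corrected counts and cannot remove this. The part of the separate normalization in the difference was not tested. Cells with 2 or more Foxp3 counts made up 2.08% ± 0.534 of activated cells in 564Igi and 3.04% ± 0.729 in WT chimeras (SD, n = 5 each, exact permutation p = 0.0476). Leaving out mouse 11, 13 or 14 raised p to 0.0635, leaving out mouse 21, 24 or 34 raised it to 0.0952, and leaving out both mice 34 and 36, whose numbers stand apart, raised it to 0.114 (exact permutation tests). In mouse 14, which had the highest share, 92 of the 112 detected cells had a single count.

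**Figure D1:**
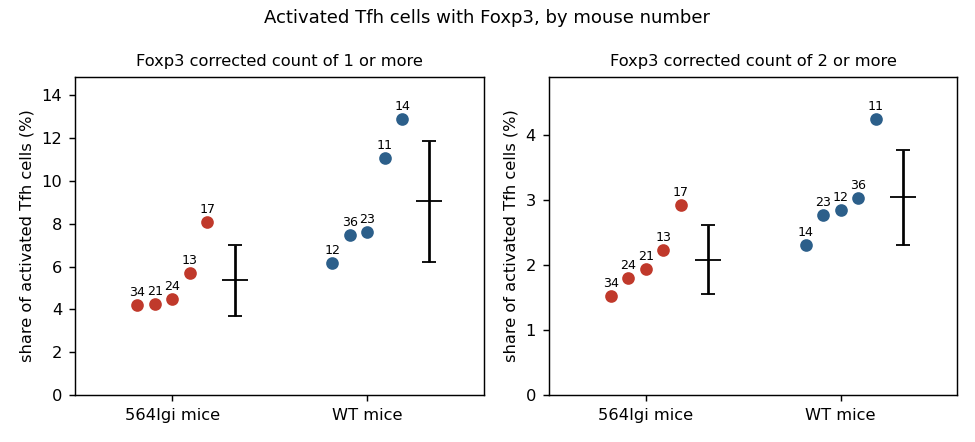
Share of activated Tfh cells in which Foxp3 was found, in percent of a mouse's activated cells. Each point is 1 mouse with its number, and the bars give the mean ± SD of 5 mice at a minimum of 1 count and at a minimum of 2 counts. WT mice 11 and 14 lie at 11.1% and 12.9%, above all 564Igi mice, while the other WT mice lie between 6.15% and 7.61%.

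The authors' clusters were built from gene expression, so the following shares are a description with no test. Foxp3 was found in 7.19% of activated cells (median 3547 UMIs), 4.32% of Sostdc1 Tfh cells (median 3741), 4.40% of effector Tfh cells (median 3471), 6.34% of central memory Tfh cells (median 4027), 25.9% of interferon-stimulated Tfh cells (median 3893) and 56.7% of Tfr cells (median 3461). Undetected cells were thus common among Tfr cells, where the detected share ran from 48.5% to 62.4% over the mice. The activated share was above that of the Sostdc1 cluster in 9 of 10 mice, above that of the effector cluster in 9 of 10, above that of the central memory cluster in 7 of 10 and above that of the interferon-stimulated cluster in 0 of 10. The fewest cells in a mouse were 13 central memory, 14 interferon-stimulated, 23 effector and 82 Sostdc1 cells, against 556 activated cells. Over the mice the central memory share ran from 0% to 15.8%. No sorted population is known to lack Foxp3, and the part of free RNA in these cluster shares was not tested.

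Activated cells with Foxp3 had more of the RNA that marks regulatory T cells and less of the RNA for several helper molecules. For each gene, a level is the mean over a mouse's cells of log2(corrected count + 1), and the difference is the detected level minus the undetected level of the same mouse. Of 9858 genes tested, 134 (1.36%) were called, at an adjusted p below 0.01 and an absolute difference above 0.2 (limma, Benjamini-Hochberg adjusted). Of these, 82 (0.832% of genes tested) were higher in detected cells and 52 (0.527%) were lower. The sign was the same in 10 of 10 mice for 112 of the 134. With no limit on size, 1623 genes (16.5%) had an adjusted p below 0.05, and the median difference over all genes tested was 0.01. The limit of 0.2 keeps weakly expressed genes from being called: the lowest mean level of a called gene was 0.24, and 7345 of the genes tested were below it.

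**Figure D2:**
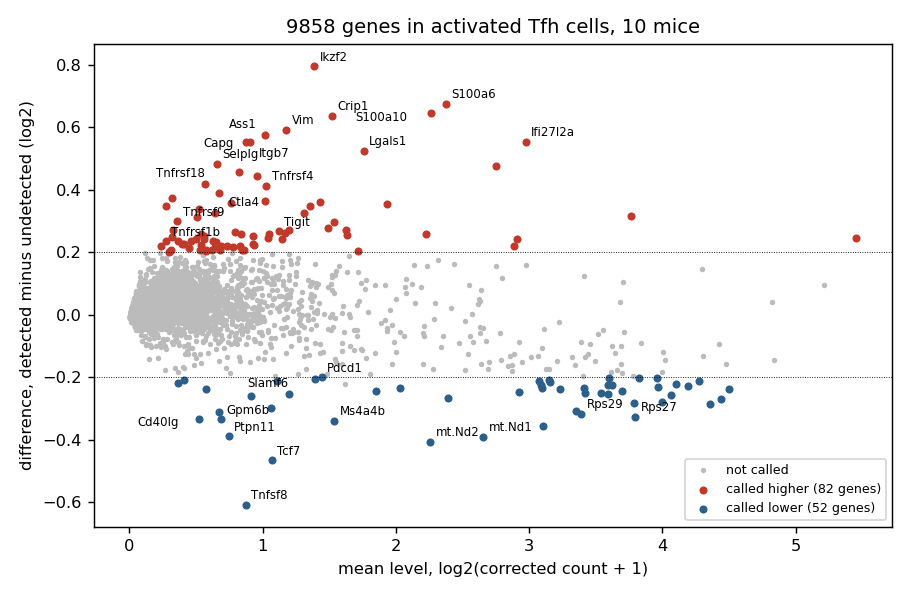
Difference in level between Foxp3-detected and undetected activated Tfh cells (log2 scale, mean of 10 mice) against the mean level of the gene, log2(corrected count + 1), for 9858 genes. Red points are the 82 genes called higher and blue points the 52 called lower. Ikzf2 has the largest positive difference (0.80) and Tnfsf8 the largest negative one (-0.61).

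Of 40 regulatory genes on a Tfr list that leaves Foxp3 out, 36 passed the filter on low values. Of these, 8 (22.2%) were called higher and 0 lower (limma), against 0.832% and 0.527% of all genes tested. At an unadjusted p below 0.05 (limma), 30 (83.3%) were higher and 1 (2.78%) lower, against 26.2% and 4.13% of all genes tested. The median difference over these 36 was 0.11, and 20 (55.6%) were higher in all 10 mice, against 4.72% of all genes tested. Of the 36, 31 (86.1%) were positive, near the 77.0% of all genes tested. Ikzf2 (chr1:69531214-69687245, minus strand, GRCm38), which encodes the regulatory T cell transcription factor Helios, differed most. Its level in detected cells was 1.44 at the lowest, 1.78 at the median and 1.99 at the highest of the mice, against 0.90, 0.96 and 1.11 in undetected cells. The lowest mouse for detected cells was above the highest mouse for undetected cells. The difference was 0.80 ± 0.047 (SE, n = 10, adjusted p = 1.08e-13), and Ikzf2 was found in 86.1% of detected and 60.5% of undetected cells (means over mice).

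Of the surface receptors that regulatory T cells carry, 6 were called higher, 4 of them TNF receptor family members. Tnfrsf18, which encodes GITR, had levels of 0.88, 1.06 and 1.27 (lowest, median and highest mouse) in detected cells and 0.53, 0.60 and 0.67 in undetected cells, with a difference of 0.46 ± 0.033 (SE, adjusted p = 1.1e-11). Ctla4, a competitor for the CD28 ligands, had levels of 0.68, 0.86 and 1.14 against 0.25, 0.48 and 0.79, with a difference of 0.39 ± 0.029 (SE, adjusted p = 1.89e-11). The mice did not overlap between the cell groups for Tnfrsf18, and did for Ctla4, which was nevertheless higher in detected cells of 10 of 10 mice. Tnfrsf4 (OX40) differed by 0.41, Tnfrsf9 (4-1BB) by 0.30, and the inhibitory receptor Tigit by 0.27. Tnfrsf1b, the second TNF receptor, differed by 0.24 and did not overlap between the groups. Its difference fell under the limit without cells of clonotypes that reached into the Tfr cluster (0.19) and for cells with exactly 1 Foxp3 count (0.17), as did that of Tigit for the latter (0.1995). Capg, which encodes an actin-capping protein, differed by 0.55 ± 0.040 (SE, adjusted p = 1.1e-11).

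The other 28 tested genes of the list were not called. Il2ra, the high-affinity IL-2 receptor chain, was found in 7.78% of detected and 1.84% of undetected cells, and its difference of 0.07 was under the limit although its adjusted p was 5.99e-06. On the scale of counts per 10000 it was called, at 0.27 (adjusted p = 6.72e-07). Ikzf4, which encodes the related factor Eos, differed by 0.12 (adjusted p = 4.09e-08), and it was found in 13.2% of detected and 2.07% of undetected cells. Izumo1r (folate receptor 4), abundant in both groups, had a difference of -0.07 (adjusted p = 0.468), which was 0.08 in 564Igi and -0.22 in WT chimeras. Il10 and Penk had differences of -0.0027 and -0.0026, and the inhibitory receptor gene Lag3 of -0.17. The count of Tfr-list genes called higher was 8 with undetected cells matched for depth, 6 for cells with exactly 1 Foxp3 count (an alternative added after seeing the data), and 18 on a scale of counts per 10000.

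Helper genes were lower on balance. Of 26 genes on a Tfh list, 25 were in the matrix and tested, with a median difference of -0.09. Of the 25, 5 (20%) were called lower and 1 (4%) higher, against 0.527% and 0.832% of all genes tested. At an unadjusted p below 0.05 (limma), 64% were lower, against 4.13% of all genes tested. In the other direction 4 of the 25 were higher, where the share of all genes tested was 26.2%. Tnfsf8 (chr4:63831308-63861347, minus strand), the gene for CD30 ligand and one that the study used to describe the activated cluster, had levels of 0.25, 0.59 and 0.77 in detected cells and 0.94, 1.10 and 1.52 in undetected cells. The groups did not overlap, and the difference was -0.61 ± 0.036 (SE, adjusted p = 1.08e-13). Tcf7 (chr11:52252371-52283014, minus strand), which encodes the Tfh factor TCF1, had levels of 0.60, 0.82 and 1.16 against 1.03, 1.29 and 1.56. Its groups overlapped, and the difference was -0.47 ± 0.040 (SE, lower in 10 of 10 mice, adjusted p = 2.71e-10).

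Cd40lg, the contact signal for B cells, was found in 29.3% of detected and 50.7% of undetected cells, with a difference of -0.33 ± 0.029 (SE, adjusted p = 3.78e-10) and no overlap between the groups. Slamf6, an adhesion receptor between T and B cells, differed by -0.26. Pdcd1, which encodes PD-1 and was used in the sort, differed by -0.20 (adjusted p = 0.00333), close to the limit, and its call was lost when mouse 11, 12, 13, 17, 23 or 24 was left out. It was also lost without cells whose clone reached into the Tfr cluster, where the difference was -0.09. Selplg (PSGL-1), whose RNA is low in Tfh cells, was the one member called higher, with levels of 0.34, 0.96 and 1.10 against 0.31, 0.40 and 0.59 and a difference of 0.48 ± 0.044 (SE, adjusted p = 8.89e-10).

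The factor and the receptor that define Tfh cells, Bcl6 and Cxcr5, were not called on the log2(corrected count + 1) scale. Bcl6 had levels of 0.04, 0.13 and 0.23 in detected cells and 0.07, 0.13 and 0.16 in undetected cells, with a difference of 0.01 (adjusted p = 0.785). Cxcr5 had a difference of -0.09 (adjusted p = 0.0309), and on the scale of counts per 10000 it was called, at -0.22 (adjusted p = 0.00651). Il21, the Tfh cytokine, was found in 10.9% of detected and 22.4% of undetected cells, and its difference of -0.14 was under the limit at an adjusted p of 7.15e-06. Il21 was lower in detected cells of 10 of 10 mice, and it was called on the scale of counts per 10000, at -0.40 (adjusted p = 5.91e-06).

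The largest positive differences outside the Tfr and Tfh lists were in 8 genes of varied function. They were taken from called genes with the same sign in 10 of 10 mice. The calcium-binding protein genes S100a6 and S100a10 differed by 0.68 ± 0.067 and 0.64 ± 0.063 (SE, n = 10). Crip1, for a LIM domain protein, differed by 0.64, Vim, for vimentin, by 0.59 and Lgals1, for galectin-1, by 0.52. Ass1, an enzyme of arginine synthesis, differed by 0.57 ± 0.046 (SE, adjusted p = 9.56e-11), with levels of 0.97, 1.30 and 1.56 against 0.56, 0.76 and 0.83 and no overlap. The interferon-inducible gene Ifi27l2a and the gut homing integrin gene Itgb7 each differed by 0.55. That all of these were higher in detected cells of 10 of 10 mice follows from this choice and is no separate result.

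The memory and homing list had 11 of 12 genes tested, with a median difference of 0.01. Of these, 2 (18.2%) were called higher (Itgb7 and Klf2) and 1 (9.09%) lower (Ms4a4b), against 0.832% and 0.527% of all genes tested. At an unadjusted p below 0.05 (limma), 36.4% were higher and 18.2% lower, against 26.2% and 4.13% of all genes tested. The Ms4a4b call was lost in limma without the trend (adjusted p = 0.0188) and with no filter on low genes (adjusted p = 0.0279). Klf2, a factor that maintains expression of the egress receptor gene S1pr1, differed by 0.21, in 9 of 10 mice. On the IL-2 and STAT5 list 1 of 8 tested genes (12.5%) was called higher and 0 lower, against 0.832% and 0.527% of all genes tested. The gene called was the kinase gene Pim1 (0.31, adjusted p = 1.68e-10). At an unadjusted p below 0.05 (limma), 3 of these 8 genes (37.5%) were higher and 2 of the 8 lower. The shares of all genes tested were 26.2% and 4.13%. On the T cell receptor signal list 0 of 12 tested genes were called by limma. At an unadjusted p below 0.05 there were 4 (33.3%) higher and 2 (16.7%) lower. The share of higher genes was near the 26.2% of all genes tested, and the share of lower genes was above the 4.13% of all genes tested. On the effector list 0 of 7 were called. At an unadjusted p below 0.05 (limma), 1 (14.3%) was higher and 4 (57.1%) lower, against 26.2% and 4.13% of all genes tested. Differences on the effector list ran from -0.10 for Ifng, the type 1 cytokine, to 0.08 for the chemokine gene Ccl5.

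Part of the genes for the translation and respiration machinery were lower. Over all genes tested, 0.527% were called lower and 0.832% higher, and 26.2% were higher at an unadjusted p below 0.05 (limma). Of 90 ribosomal protein genes tested, 26 were called lower and 0 higher, with a median difference of -0.15. At an unadjusted p below 0.05 (limma), 1 of them was higher. Rps27 and Rps29 led the ribosomal genes, at -0.33 and -0.32. Of 13 mitochondrially encoded genes, 8 were called lower and 0 higher (0 also at an unadjusted p below 0.05), led by the complex I genes mt.Nd2 (-0.41) and mt.Nd1 (-0.39). With depth-matched undetected cells 26 ribosomal and 5 mitochondrial genes were called lower. The mitochondrial share of RNA was 3.18% ± 0.224 in detected and 3.64% ± 0.288 in undetected cells (SD, n = 10), and it was lower in 10 of 10 mice (exact sign flip permutation test, adjusted p = 0.00879). The phosphatase gene Ptpn11 (-0.39) and the membrane glycoprotein gene Gpm6b (-0.34) completed the 10 most negative differences of 1 sign in all mice, with Tnfsf8, Tcf7, Cd40lg and Ms4a4b (-0.34).

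Set beside Foxp3-detected Tfr cells of the same mice, detected activated cells fell between undetected activated cells and Tfr cells for the 8 called regulatory genes, and outside that interval for some other genes. These levels are a description, because the clusters were cut on the same genes. The Ikzf2 level was 2.07 in detected Tfr cells, above the detected activated level in 10 of 10 mice. Tnfrsf18 (1.62), Tnfrsf4 (2.08), Ctla4 (1.08), Tnfrsf9 (1.27), Tnfrsf1b (0.59) and Tigit (1.85) were also higher in detected Tfr cells of every mouse. Capg (1.31) was higher in detected Tfr cells of 9 of 10 mice. In the opposite direction, Tnfsf8 had a level of 0.17 and Cd40lg of 0.15 in detected Tfr cells, below the detected activated level in 10 of 10 mice.

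S100a6, Crip1, Vim and Lgals1 did not lie between the other groups. Their levels in detected Tfr cells were 1.52, 0.99, 0.63 and 1.09, and detected activated cells were above these in 10 of 10 mice as well as above undetected activated cells. Klf2 (0.09 in detected Tfr cells) had the same order, with detected activated cells above detected Tfr cells in 10 of 10 mice. S100a10 was above in 9 of 10 mice, and Itgb7 and Selplg in 8 of 10.

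**Figure D3:**
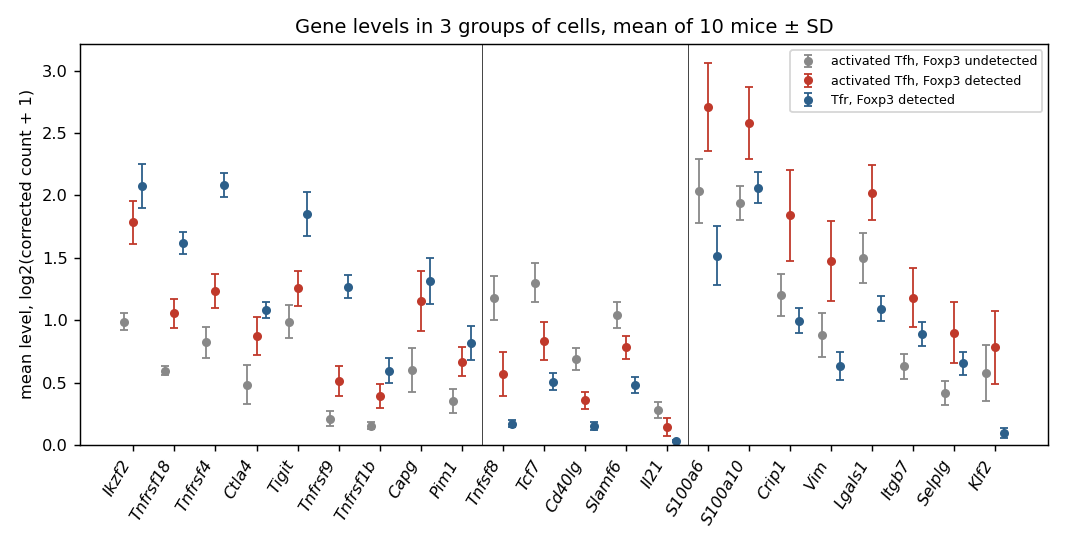
Levels of 22 genes, log2(corrected count + 1), as the mean of 10 mice ± SD in Foxp3-undetected activated Tfh cells (gray), Foxp3-detected activated Tfh cells (red) and Foxp3-detected Tfr cells (blue). From the left come regulatory genes, where red lies between gray and blue, followed by the kinase gene Pim1 of the IL-2 and STAT5 list. Then come helper genes, and then genes such as S100a6, Crip1 and Vim, where red is the highest.

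How many regulatory genes a single cell carried was counted next. A detected activated cell held 12.9 ± 1.05 of the 40 Tfr-list genes and an undetected one 9.55 ± 0.904 (mean ± SD of 10 mice). The lowest, median and highest mouse had 11.8, 12.7 and 15.0 in detected cells and 7.89, 9.53 and 11.1 in undetected cells. The difference was 3.36 genes, from 2.55 to 4.46, and was positive in 10 of 10 mice; with undetected cells matched for the number of genes found it was 2.86. Cells with 1 Foxp3 count held 12.3 genes and cells with 2 or more held 13.9. Tfr cells held 15.6 ± 0.715 when Foxp3 was found and 13.2 ± 0.573 when it was not. Of the detected activated cells 26.3% (19.0% to 44.3% over the mice) reached 16 genes, the median of detected Tfr cells, as did 6.04% (2.55% to 11.7%) of the undetected. Genes of the Tfh list went the other way, with 8.31 per detected and 9.58 per undetected cell, lower in 10 of 10 mice.

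**Figure D4:**
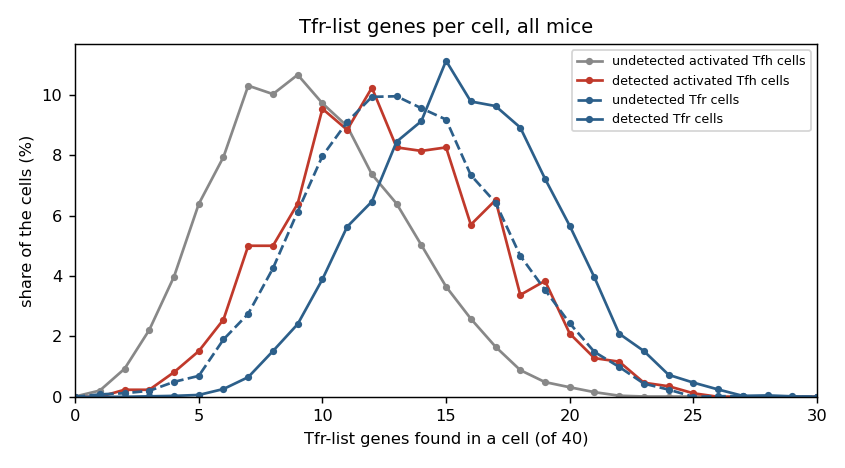
Share of cells (%) by the number of Tfr-list genes found in the cell, of 40, over all mice. The medians are 9 genes in undetected and 12 in detected activated Tfh cells, and 13 and 16 in undetected and detected Tfr cells, so the red curve of detected activated cells lies between the gray and the solid blue curve and overlaps both.

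Detected cells were also deeper. They had 1888 ± 143 genes per cell against 1672 ± 153 (SD, n = 10), a difference of 216 that was positive in 9 of 10 mice (exact sign flip permutation test, adjusted p = 0.0132), and 4603 against 3901 UMIs (adjusted p = 0.0246). In mouse 14 the order was the reverse, at -77.6 genes. A deeper cell is more likely to show a Foxp3 count, so the split itself can favor deeper detected cells. How much of the depth difference follows from the split was not tested. Matching undetected cells for genes found left 108 genes called, 97 of them among the 134. The heat shock score that the authors computed was -0.00103 in detected and -0.00728 in undetected cells (exact permutation, adjusted p = 0.505). A second α or β chain was listed in 21.7% of detected and 16.2% of undetected cells with a TCR, a difference of 5.58 percentage points that was positive in 8 of 10 mice (exact permutation, adjusted p = 0.0879), and without such cells 136 genes were called, 125 of them among the 134. Such a cell can be 1 cell with a second chain or 2 cells in 1 droplet, which was not tested further.

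Few markers of other cells passed the filter on low values, 2 for B cells, 1 for myeloid cells, 1 for CD8 or NK cells and 0 for erythroid cells, and none of these was called. Of 6 B cell markers 4 were in the matrix, with a summed level of 0.0625 to 0.265 over the mice in detected and 0.0425 to 0.0861 in undetected cells. Of these, Cd79b was found most often in detected cells, in 7.53% against 1.73% of undetected cells. Cd22 was found most often in undetected cells, in 4.08%. The defining marker Ms4a1 was found in 0.172% and Cd79a in 0.082% of detected cells. The 5 myeloid markers in the matrix summed to 0.407 to 0.771 in detected and 0.387 to 0.559 in undetected cells, almost all from Cst3, with Csf1r and Tyrobp at 0 in detected cells. The 2 CD8 or NK markers in the matrix summed to 0.0207 to 0.103 and 0.0226 to 0.0559, and the 3 erythroid markers to at most 0.0172 and 0.0215. The part of these cells in the results was not tested.

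Whether the difference between detected and undetected cells itself differed between 564Igi and WT chimeras was tested in the same fit. The number of genes called was 0 of 9858 (0%), with limma with and without its trend, and 526 had an unadjusted p below 0.05 (smallest adjusted p = 0.304). Ikzf2 differed by 0.77 in 564Igi and 0.82 in WT chimeras, and Tnfsf8 by -0.65 and -0.57.

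TCR sequences were not used to split the cells. The authors' Tfr cluster was built from gene expression, so measures of a sister in that cluster are not independent of expression. A clonotype was a pair of CDR3α and CDR3β amino acid sequences within 1 mouse, and 632 detected and 8421 undetected activated cells had one. The detected cells spread over 559 clonotypes, of which 304 were a single cell in all clusters and 186 also held a Tfr cell. Only 40 clonotypes held 2 or more detected cells, and 31 of these held a Tfr cell. They came from all 10 mice and held 113 detected cells.

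The 3 clonotypes that held 4 or more detected cells are shown because they span the range from clones that lie mostly in the Tfr cluster to a clone that lies mostly in the activated cluster. CDR3 nucleotide sequences, of clone 1 the α chain alone, are given 5′ to 3′ as in the deposited TCR table, and all cells of each clonotype carried them. Capitals mark the first and last codon, which encode the residues that bound the CDR3.
Clone 1 alpha: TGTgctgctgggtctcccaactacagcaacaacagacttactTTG
Clone 2 alpha: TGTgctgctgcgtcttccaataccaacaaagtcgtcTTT
Clone 2 beta: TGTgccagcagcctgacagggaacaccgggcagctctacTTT
Clone 3 alpha: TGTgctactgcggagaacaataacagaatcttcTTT
Clone 3 beta: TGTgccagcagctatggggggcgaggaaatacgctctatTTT

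Clone 1 (564Igi mouse 17) used TRAV4-3 (chr14:53598828-53599410, GRCm38, plus strand) with TRAJ7. Of its 179 cells 139 were Tfr cells and 38 activated cells, and Foxp3 was found in 21 of the 38 (55.3%, exact 95% binomial interval 38.3% to 71.4%) and in 95 of the 139 (68.3%, 59.9% to 76.0%). It held 22.3% of the detected cells of mouse 17 that had a TCR. Clone 2 (WT mouse 12) used TRAV4-4-DV10 with TRAJ34 and TRBV15 with TRBJ2-2. Foxp3 was found in 5 of its 15 activated cells (33.3%, 11.8% to 61.6%) and in 36 of its 57 Tfr cells (63.2%, 49.3% to 75.6%). Clone 3 (WT mouse 23) used TRAV8-1 with TRAJ31 and TRBV10 (chr6:41091940-41092228, plus strand) with TRBJ1-3. It had 117 activated cells among 148, of which 4 were detected (3.42%, 0.939% to 8.52%), and 0 of its 12 Tfr cells were detected, which allows a share of up to 25% by a limit of 3 counts and 26.5% by the exact interval. The intervals cover counting error only.

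Detected cells were less often part of a clone. Clones of 2 or more cells held 51.4% ± 10.4 of detected and 70.4% ± 4.89 of undetected cells (SD, n = 10), a difference of -19.0 percentage points, from -34.7 to -1.51, and negative in 10 of 10 mice (two-sided exact sign flip permutation test, p = 0.00195, the smallest it can give; adjusted p = 0.00879). The smallest difference was in mouse 17, the mouse of clone 1. Without cells with a second chain the mean difference was -14.8 (exact permutation, adjusted p = 0.00879). With clonotypes defined by the β chain alone it was -13.6 (exact permutation, adjusted p = 0.0117).

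Over all cells with a TCR, 38.5% ± 13.2 of detected and 34.3% ± 9.91 of undetected cells had a sister in the Tfr cluster, meaning a cell of the same clonotype there. The difference of 4.18 percentage points was positive in 7 of 10 mice and did not pass the test (exact permutation, adjusted p = 0.166). It passed with clonotypes defined by the β chain alone, at 6.27 (exact permutation, adjusted p = 0.0293), and it was 8.27 without cells with a second chain (exact permutation, adjusted p = 0.0645). Without clone 1 it was 2.89 (exact permutation, adjusted p = 0.291). At a minimum of 2 counts it was 4.47 (exact permutation, adjusted p = 0.359). A cell without any sister cannot have one among Tfr cells, so the share was also taken over clones of 2 or more cells. There it was 73.9% ± 17.4 of 328 detected and 48.2% ± 11.2 of 5981 undetected cells, a difference of 25.7 percentage points, from 8.47 to 43.0, in 10 of 10 mice (exact permutation, adjusted p = 0.00586). With undetected cells weighted to the clone sizes of the detected ones the difference was 28.2. In clones of 2 or more cells without clone 1 it was 24.5.

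Detected cells tended to share clonotypes with each other. Among activated cells with at least 1 activated sister, 41.5% ± 14.3 of detected and 22.2% ± 10.5 of undetected cells had a detected sister, a difference of 19.3 percentage points in 9 of 10 mice (exact permutation, adjusted p = 0.0117), with mouse 11 at -8.48. Of a cell's other activated sisters, 25.3% ± 7.41 were detected when the cell itself was and 3.21% ± 1.59 when it was not, an order seen in 10 of 10 mice. This last measure was added after seeing the data. Of 166 clonotypes with 2 or more activated cells and a detected one, 16 had only detected activated cells and 150 had both kinds.

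**Figure D5:**
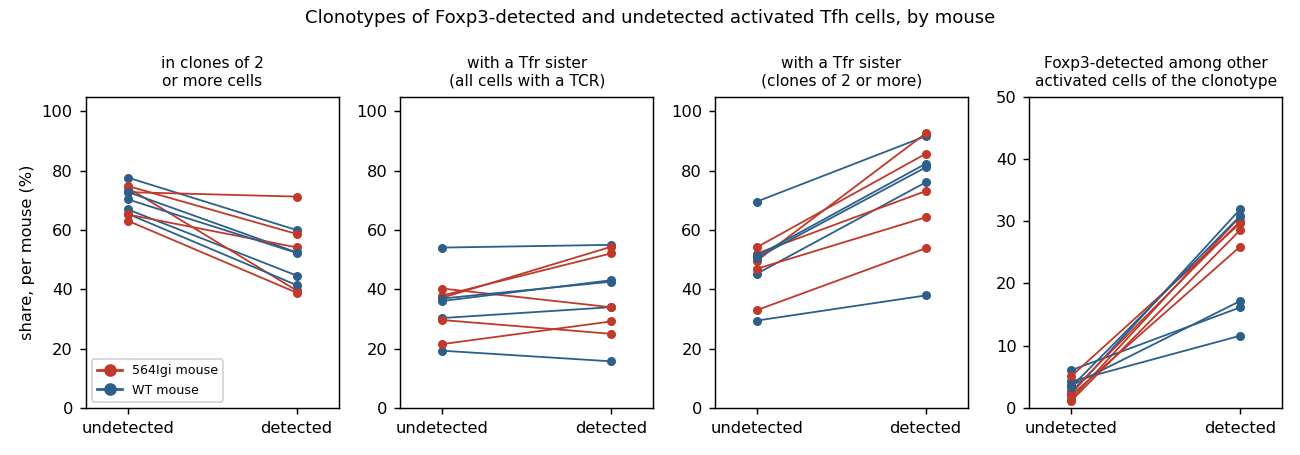
Clonotype measures of undetected and detected activated Tfh cells, in percent, with each line joining the values of 1 mouse (5 564Igi and 5 WT). From the left the panels give the share in clones of 2 or more cells (70.4% against 51.4% on average), the share with a Tfr sister over all cells with a TCR (34.3% against 38.5%), the same over clones of 2 or more cells (48.2% against 73.9%), and the share of a cell's activated sisters that were detected (3.21% against 25.3%).

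Within the 150 clonotypes that held both kinds, 205 detected cells (5 to 57 per mouse) could be set against 1347 undetected cells of the same clonotypes, a comparison added after seeing the data. No gene was called (0 by limma, 606 at an unadjusted p below 0.05, smallest adjusted p = 0.33). Ikzf2 differed by 0.34 ± 0.079 and Ass1 by 0.40 ± 0.078 (SE), each higher in detected cells of 10 of 10 mice, and Tcf7 by -0.36 ± 0.082, lower in 10 of 10. Ctla4 and Tnfrsf18 differed by 0.30 and 0.37, each positive in 9 of 10 mice. The median over the 36 tested genes of the Tfr list was 0.06, against 0.11 over all activated cells.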

How the data were processed

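Gene expression and TCR libraries of 10 chimeras (5 WT and 5 564Igi) were analyzed. The authors aligned reads with Cell Ranger 4.0.0 to GRCm38 (mm10) and filtered and clustered cells in Seurat 3.1.4. They normalized WT and 564Igi cells separately by sctransform, regressing out heat shock score, depth, and mitochondrial and ribosomal content. The deposited matrix holds the natural log of the corrected count plus 1, and unlogged values were whole within 4e-12. The deposited cell table gives the authors' cluster, UMIs, genes, mitochondrial percent and heat shock score per cell. The deposited counts are corrected values, so no count model was fitted and intervals cover counting error only.

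Values were put on the log2(corrected count + 1) scale, and the mean was taken per mouse and cell group. The 10 within-mouse differences of 9858 genes, each found in at least 1% of activated cells in at least 5 mice, were tested with limma 3.58.1 with a mean trend in R 4.3.3 and adjusted by Benjamini-Hochberg over all genes. The procedure was tested on simulated data. Both cell groups of a mouse came from 1 library. Deviations of detected and undetected cells from their group means correlated at 0.364 to 0.705 within a mouse and -0.436 to 0.325 between mice. Single values were tested by exact sign flips over the mice (two-sided), adjusted over 9 tests, or by exact permutation between conditions. Each mouse is 1 replicate and its TCR library was matched by barcode and mouse; 21405 cells had both. TCR fields list at most 2 chains per cell. Coordinates are from GENCODE vM21. No doublet caller was run. One list gene and 1 chain sequence are not reported here.

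Members, gene lists and comparisons were chosen with earlier results of these data known. Genes named were all called genes of the Tfr and Tfh lists, the 10 largest differences in each direction with 1 sign in 10 of 10 mice, and 9 set genes; other list members were named after their values were seen. Alternatives covered the trend, the filter, the scale, depth matching, a minimum of 2 counts, chain number, Tfr sisters, pairing, weighting, clonotype definition and each mouse left out.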

Additional observations from a re-analysis of the deposited data

Results flagged for a closer look

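One of the 47 sets of 10 mouse values examined had a mouse far from the others. The difference of Lgals1 between detected and undetected activated cells was 1.29 in WT mouse 12 and 0.159 to 0.723 in the other 9 mice. The undetected level of Lgals1 in mouse 12 was 1.03, the lowest of the mice, while its detected level of 2.31 was the highest. Chance gives such a value in about 1 in 20 sets.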

How the results depend on the processing

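The count of 134 called genes became 1623 at an adjusted p below 0.05 with no limit on the difference, 471 on a scale of counts per 10000, 240 when detected meant 2 or more counts, 55 for cells with exactly 1 count and 0 within clonotypes; the cause was not tested. The last 2 settings were added after seeing the data. The count of Tfr-list genes called higher, 8, became 29, 18 and 0 with no limit, per 10000 and within clonotypes. Of the called genes 61.2% were higher, 65.0% per 10000 and 51.9% with depth matching. Without the pairing of cell groups by mouse (no replicate block) 104 genes were called, and of the named genes Pdcd1, Ms4a4b, Rps27 and Rps29 lost their call. The difference in detected share between 564Igi and WT chimeras was -4.42 to -2.73 percentage points with 1 mouse left out and -3.81 without mice 34 and 36. The Tfr sister difference of 4.18 became 6.27 (exact permutation, adjusted p = 0.0293) by β chain alone, which leaves out clone 1. Over all cells with a TCR it was 2.89 without clone 1 (exact permutation, adjusted p = 0.291). In clones of 2 or more cells it was 25.7, 28.2 and 24.5 (all, weighted to clone size, and without clone 1). The second chain difference was 3.65 to 6.92 with 1 mouse left out, and passed without mouse 17 (adjusted p = 0.0205). At a minimum of 2 counts the detected sister difference was 28.1 (adjusted p = 0.0563) and the Tfr-list genes per cell difference 4.33. Signs turned for genes near 0 or within clonotypes. Izumo1r became 0.078 and Bcl6 -0.021 with depth matching, Bcl6 ran from -0.00057 (without mouse 34) to 0.020 with 1 mouse left out and was -0.0018 without mice 34 and 36, and within clonotypes Ms4a4b became 0.059 and Il21 0.0016.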

Other observations

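The 4 Tfr-list genes under the filter on low values were found in few cells of either kind. Lrrc32, which presents latent TGF-β on regulatory T cells, was found in 4.17% of detected and 0.356% of undetected activated cells, and the integrin gene Itgae in 3.61% and 0.254%. Klrg1 was found in 3.18% and 0.404%, and Il1rl1 (the IL-33 receptor) in 0.738% and 0.110%. Detected levels were above undetected ones in 9 of 10 mice for Lrrc32 and for Itgae, in 7 for Klrg1 and in 4 for Il1rl1.

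Detected cells of different clone classes carried regulatory genes in different numbers. Detected cells with a Tfr sister held 13.8 ± 1.27 of the 40 Tfr-list genes, those of clones of 1 cell 12.9 ± 1.64, and those of larger clones without a Tfr sister 10.98 ± 2.24 (SD over 10 mice). The corresponding undetected cells held 10.1, 8.85 and 9.60 genes. The detected classes had 247, 304 and 81 cells, with as few as 2 per mouse in the last, and their order was not tested.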
